A study of Mus musculus with 89 samples.

Results

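The genes of MHC antigen presentation described here are 10 named genes: the class I heavy chains H2-K1, H2-D1, H2-Q6 and H2-Q7, the peptide transporter subunits Tap1 and Tap2, the loading factor Tapbp, the immunoproteasome subunits Psmb8 and Psmb9, and the class II invariant chain Cd74. They were chosen by name, and their reads were taken from 2 tables of exon skipping events made from RNA of the mouse nucleus accumbens, a region of the ventral striatum that serves reward. Of the 10 genes, 7 were measured among the 9542 genes of the first table (the HSV table) and 2, H2-Q7 and Cd74, among the 3434 genes of the other (the dCas9-SET2 table). Tap2, Psmb8 and Psmb9 were not analysed here.

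The series asked how H3K36me3, a histone mark of transcribed gene bodies, bears on splicing and on cocaine reward. Its mice were wild-type C57BL/6 animals of 8 weeks, and RNA was taken from micropunches of the nucleus accumbens. In one experiment the tissue received a herpes simplex virus (HSV) carrying Set2 (HSV-Set2), the enzyme that writes H3K36me3, the form R195G of it (HSV-R195G) or GFP (HSV-GFP), with 3 RNA libraries per group. In the other it received dCas9-SET2, a Cas9 that does not cut fused to SET2, with a guide to Srsf11 (sgRNA-SRSF11) or a non-targeting guide (sgRNA-NT), with 16 RNA runs per guide under 4 sample names of 4 runs each. How many animals stand behind a library is not stated in the labels.

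Neither table names its libraries. The HSV table holds one set of 3 libraries and one set of 2, so no virus could be assigned to a set, and they are called the 3-library set and the 2-library set. Differences are given as the 3-library set minus the 2-library set. The dCas9-SET2 table holds a first and a second set of 16 runs, with no guide assigned to a set. Reads over all listed events came to between 7428974 and 8341849 in the 3-library set, against 8638249 and 8366275 in the 2-library set. The libraries are not stated to come from separate animals, so p-values measure only the spread between these libraries, which may be technical.

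MHC class I molecules carry peptides from inside the cell to its surface, where cytotoxic T cells read them. The proteasome cuts the peptides, the transporter made of TAP1 and TAP2 brings them into the endoplasmic reticulum, and tapasin (Tapbp) bridges the transporter to a heavy chain paired with beta-2 microglobulin. Interferons raise the genes of this pathway together, through IRF factors at an interferon-stimulated response element (ISRE) and through NLRC5, which acts with RFX, CREB or ATF and NF-Y factors bound at the X and Y boxes of class I promoters. In the resting brain, class I levels are low, and microglia are among the cells that carry Cd74.

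The promoter stretches of the heavy chain genes and of B2m are shown because these genes rose together in the data below and because the letters bound by the factors named above stand at close to the same spacing in them. They are from RefSeq on GRCm38.p6, 119 bases each, cut the same way around the first ATTGG on the strand of the gene. Capitals mark the Y box (ATTGG, or CCAAT on the other strand), the X2 box (TGACG) and an ISRE. In the heavy chain genes the ISRE letters are TTTCACTTC, the reverse complement of a relaxed form GAANNGAAA, and in B2m they are GAAANNGAAA on the strand of the gene. H2-K1 lies at chr17:34000335-34000453 on the minus strand. On the plus strand are H2-D1 at chr17:35262928-35263046, H2-Q7 at chr17:35439025-35439143, H2-Q6 at chr17:35424681-35424799 and B2m at chr2:122147544-122147662.
H2-K1: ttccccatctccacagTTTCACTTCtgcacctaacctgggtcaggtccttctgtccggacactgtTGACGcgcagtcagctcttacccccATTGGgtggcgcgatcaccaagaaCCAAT
H2-D1: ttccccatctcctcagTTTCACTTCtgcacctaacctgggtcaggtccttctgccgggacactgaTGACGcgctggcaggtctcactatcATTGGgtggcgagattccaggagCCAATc
H2-Q7: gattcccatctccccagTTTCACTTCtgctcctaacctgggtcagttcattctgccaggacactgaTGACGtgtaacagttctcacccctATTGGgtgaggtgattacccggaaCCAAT
H2-Q6: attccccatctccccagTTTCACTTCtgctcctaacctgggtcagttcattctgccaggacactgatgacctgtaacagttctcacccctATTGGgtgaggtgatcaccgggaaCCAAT
B2m: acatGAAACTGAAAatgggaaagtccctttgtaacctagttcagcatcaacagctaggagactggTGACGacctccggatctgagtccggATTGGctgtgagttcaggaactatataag

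In H2-K1, H2-D1 and B2m the X2 box began 25 bases before the Y box, and in H2-Q7 it began 24 bases before it. The ISRE began 74 bases before the Y box in H2-K1 and H2-D1, 73 bases before it in H2-Q7 and H2-Q6, and 86 bases before it in B2m. The stretches of H2-Q6 and H2-Q7 were identical at 113 of 119 positions. Counted from 1 at the 5′ end, the substitutions of H2-Q6 to H2-Q7 were A1G, T2A, C4T, C71G, C106T and G110C. The substitution C71G falls in the X2 box letters, so the search found TGACG in H2-Q7 and not in H2-Q6.

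Windows from 250 bases before to 50 bases after the start site were available for 6 of the 7 measured genes, all but Cd74. Both strands were searched. The Y box letters ATTGG stood in 6 of the 6, against 37.4% of 32851 such windows of the genome. The X2 box letters TGACG stood in 4 of the 6 (H2-K1, H2-D1, H2-Q7 and Tap1), against 20.8% of windows. The ISRE letters GAAANNGAAA stood in 0 of the 6, against 3.44% of windows. The relaxed form GAANNGAAA was searched for after the first ISRE form had found no match, and it stood in 4 of the 6, the 4 heavy chain genes, against 7.52% of windows. The letters of the 2 ISRE forms do not contain each other. Between pairs of the 4 heavy chain windows, 55.4% to 79.9% of aligned positions were identical, gaps counted. Matches in these 4 windows are thus not independent, and the counts beside the shares of the genome are a description. The windows of Tap1 and Psmb9, which lie head to head on opposite strands, overlap by 275 bases, and H2-K1 has 2 listed start sites 14 bases apart. A match of letters is a description and not a site of binding.

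**Figure D1:**
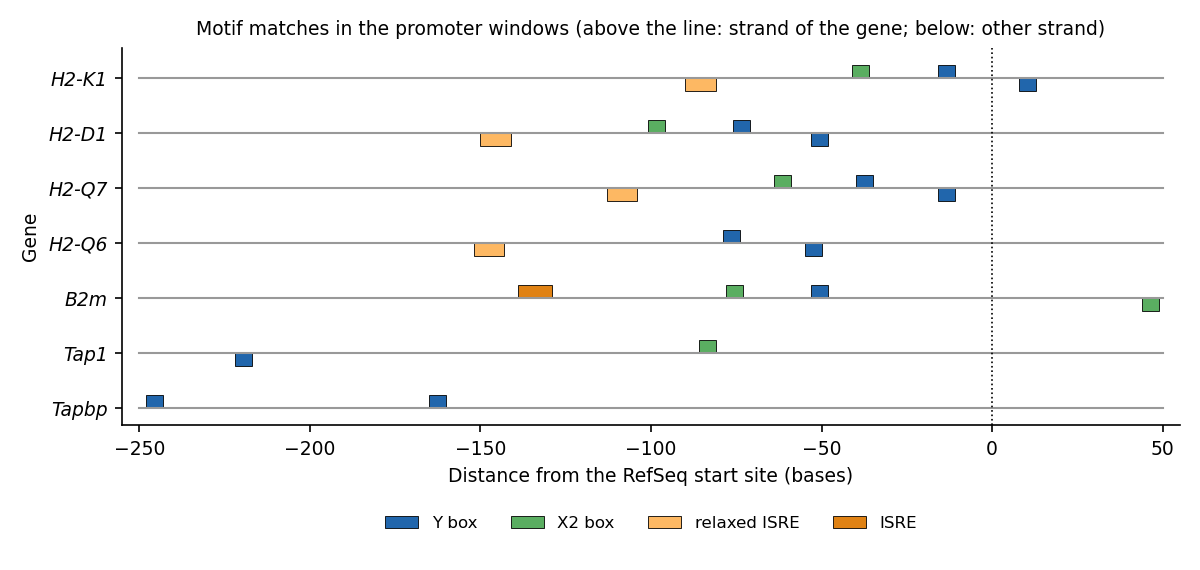
Motif matches in the promoter windows of 6 measured genes and B2m, by distance in bases from the RefSeq start site (dotted line), with matches on the strand of the gene above each line and on the other strand below it. In H2-K1, H2-D1, H2-Q7 and B2m an ISRE form, the X2 box and the Y box follow one another, with 24 or 25 bases from the start of the X2 box to that of the Y box.

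All 7 measured genes were higher in the 3-library set. Coverage of a gene was taken as the inclusion and skipping reads over its deepest event, scaled to depth with TMM factors and given as CPM. CPM are counts relative to 1e+06 scaled reads of the library over the deepest events of all genes. These reads came to between 3650731 and 4159048 per library before scaling. The event differs in length between genes, so levels of different genes are not compared. With limma and Benjamini-Hochberg adjustment over 8201 genes, 7 of 7 passed an adjusted p of 0.05 with a higher level, against 13.0% of all genes tested that were called higher. In 7 of 7 every library of the 3-library set lay above both libraries of the 2-library set, against 25.6% of all genes tested. H2-Q6 and H2-Q7 reached the required mean of 20 reads per library only through the 3-library set, so these shares are a description. The other 5 genes had that mean in the 2-library set alone, and 5 of 5 were called higher. The median log2 difference was 3.72 over the 7 genes and -0.0036 over all genes tested.

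The exon of each deepest event is placed in the coordinates of the HSV table, whose build is not named and does not match GRCm38 gene positions. On chromosome 17 these were a 39-nt exon of H2-K1 at 34133561 to 34133599, a 39-nt exon of H2-D1 at 35403633 to 35403671 and a 276-nt exon of H2-Q6 at 35564809 to 35565084. Also on chromosome 17 were a 270-nt exon of H2-Q7 at 35576397 to 35576666, a 129-nt exon of Tap1 at 34329782 to 34329910 and a 399-nt exon of Tapbp at 34062355 to 34062753. The exon of Cd74 was the 192-nt exon on chromosome 18 described with the inclusion levels.

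**Figure D2:**
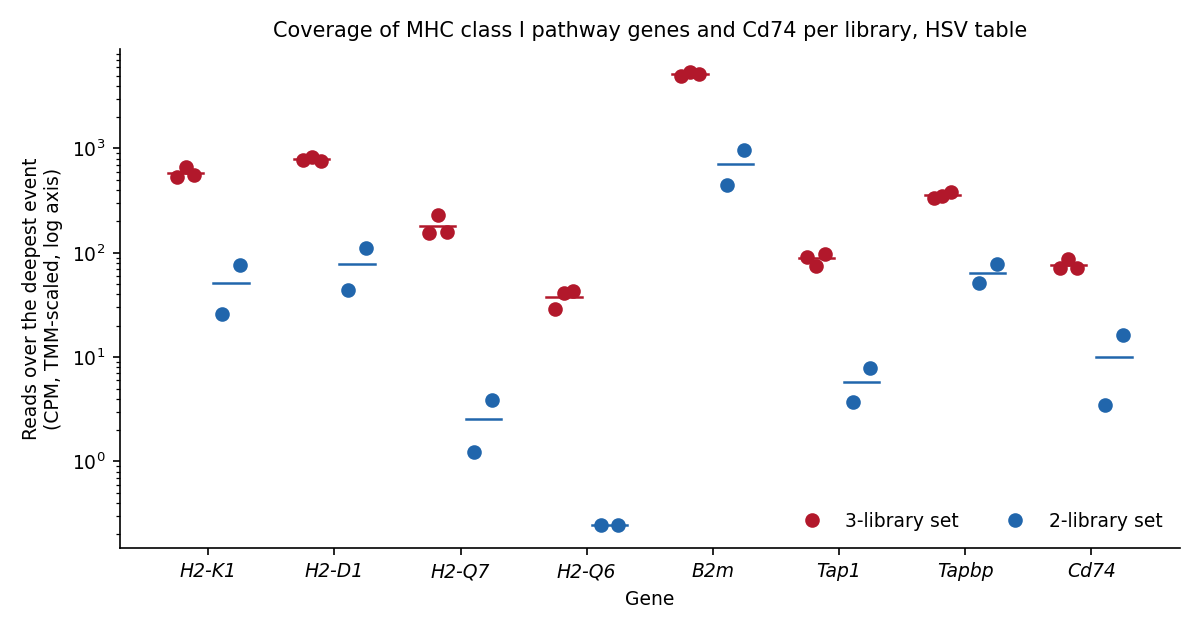
Coverage in CPM (log axis) of the 7 measured genes and of B2m in each library, with the 3-library set in red to the left of the 2-library set in blue, points for libraries and lines for means. In each gene the red points lie above the blue ones, from 338.5 CPM and above against 77.7 CPM and below for Tapbp to 28.9 CPM and above against 0.247 CPM and below for H2-Q6.

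H2-K1 encodes the K heavy chain, a classical class I molecule that presents peptides to cytotoxic T cells. It had 534.0, 665 and 563 CPM in the 3-library set, against 25.7 and 76.2 CPM in the 2-library set. The sets did not overlap, and the second library of the 2-library set was 2.97 times as high as the first. The log2 difference was 3.72 ± 0.30 (SE, n = 3 and 2, limma adjusted p = 2.149e-06). Leaving out either library of that set in turn gave 2.94 (first) and 4.50 (second).

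H2-D1, the D heavy chain and the other classical class I gene measured, had 770, 838 and 751 CPM in the 3-library set, against 43.7 and 112 CPM in the 2-library set. The groups were apart by far more than the spread within the 3-library set (786 ± 45.7 CPM, SD, n = 3). Its log2 difference was 3.49 ± 0.26 (SE, n = 3 and 2, limma adjusted p = 1.088e-06). With the first or the second of the 2 libraries of the 2-library set left out it was 2.81 or 4.16.

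H2-Q7 and H2-Q6 encode non-classical heavy chains of the Qa-2 type. H2-Q7 had 157, 231 and 160 CPM in the 3-library set, against 1.23 and 3.92 CPM in the 2-library set, where it rested on 5 and 16 reads. It was thus near the limit of detection in the 2-library set and well covered in the 3-library set. The log2 difference was 6.26 ± 0.36 (SE, n = 3 and 2). It came to 5.47 or 7.05 when the first or the second of the 2 libraries of the 2-library set was left out. Because H2-Q7 reached the filter on reads only through the 3-library set, its limma p is not given.

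H2-Q6 had 28.9, 41.4 and 43.2 CPM in the 3-library set, against 0.247 and 0.245 CPM in the 2-library set, which is 1 read in each library. Pooled over libraries, 432 reads in the 3-library set stood against 2 in the 2-library set, a ratio scaled to depth of 153 with an exact 95% counting interval of 42 to 1260. Its other event, over a 116-nt exon, had 115, 137 and 101 reads in the 3-library set, against 9 and 5 in the 2-library set, a ratio of the set means of 17.8, which lies below that interval. The size of the difference in H2-Q6 thus depends on the event. H2-Q6 reached the filter on reads only through the set where it is high, so its limma p is not given.

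Reads can be split between near-identical H2 genes, and how the authors placed reads that match several of them is not stated in the labels, so the level of each single heavy chain gene is uncertain. H2-D1, Tapbp and Cd74 had 1 event each, and the other 4 genes had 2 or more. All 18 events of the 7 genes had more reads, scaled to depth, in every library of the 3-library set, with ratios of the set means between 5.55 and 154. For the 7 events of H2-Q7 they lay between 23.4 and 84.3, for the 4 events of H2-K1 between 10.03 and 13.6, and for the 2 events of Tap1 they were 11.8 and 15.3. Events of a gene can share reads, and the share of all events with no overlap was not counted. The count of 18 is thus a description.

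Tap1, the transporter subunit, had 91.8, 75.2 and 97.8 CPM in the 3-library set, against 3.70 and 7.85 CPM in the 2-library set. The lowest library of the 3-library set was above the highest of the 2-library set by a wide margin. The log2 difference was 3.99 ± 0.28 (SE, n = 3 and 2, limma adjusted p = 6.166e-07).

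Tapbp encodes tapasin, which holds the heavy chain near the transporter until it has a peptide. It had 338.5, 351 and 381 CPM in the 3-library set, against 50.8 and 77.7 CPM in the 2-library set. Its difference, 2.50 ± 0.15 on the log2 scale (SE, n = 3 and 2, limma adjusted p = 1.644e-07), was the smallest of the 7 genes. The other 6 had log2 differences of 3.31 and above.

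Cd74 encodes the invariant chain, which guides class II molecules to endosomes and blocks their groove until it is cut away. It had 71.2, 86.9 and 71.3 CPM in the 3-library set, against 3.45 and 16.4 CPM in the 2-library set. The sets did not overlap, but the libraries of the 2-library set differed from each other 4.76 times, the widest gap among the 7 genes. The log2 difference was 3.31 ± 0.45 (SE, n = 3 and 2, limma adjusted p = 0.0001448). It came to 2.20 or 4.41 when the first or the second of the 2 libraries of the 2-library set was left out. In 6 of the 7 genes the second library of the 2-library set was the higher one, and in H2-Q6 both had 1 read.

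In bulk tissue, more cells of a type and more RNA per cell cannot be told apart. Microglia marker genes from a list of 15, of which 11 were tested, summed to between 2471 and 2633 CPM in the 3-library set, against 1217 and 2741 CPM in the 2-library set, so the sums overlapped. Of the 11, 5 were higher and 0 lower by limma at adjusted p of 0.05, led by Tmem119 (43.3 ± 6.1 CPM, SD, n = 3, against 14.6 and 18.1 CPM), Aif1 and C1qa. Among all genes tested, 13.0% were called higher. Tmem119 had a log2 difference of 1.40, and Aif1 and C1qa each had one of 0.84. Aif1 lost its call when any of 3 of the 5 libraries was left out and C1qa when any of 4 was, and the lowest differences, 0.33 and 0.17, came with the first of the 2 libraries of the 2-library set left out. Ms4a7, the 1 tested marker of border macrophages, had 20.6, 29.4 and 22.1 CPM in the 3-library set, against 1.97 and 6.38 CPM in the 2-library set (log2 2.70, and 1.88 or 3.51 when the first or the second of these 2 was left out). With 8 and 26 reads in the 2-library set, Ms4a7 reached the filter only through the 3-library set. Each of these marker genes was higher in the second than in the first library of the 2-library set, as Cd74 was. The part of cell content in the differences of the presentation genes was not tested.

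Other cell markers moved too. Of all 8201 genes tested, 1068 were called higher and 782 lower. Striatal neuron genes were lower in the 3-library set in 10 of 11 tested, led by Pde10a, Rgs9 and Ppp1r1b with log2 differences of -1.80, -1.79 and -1.75, and they summed to between 3452 and 3692 CPM in the 3-library set, against 10312 and 8237 CPM in the 2-library set. Ppp1r1b, which encodes DARPP-32 of medium spiny neurons, had between 1404 and 1498 CPM in the 3-library set and 5563 and 4340 CPM in the 2-library set, so this marker of the labelled tissue was detected in all 5 libraries. Oligodendrocyte genes were higher in 6 of 8 tested and astrocyte genes in 3 of 7, with the largest called log2 differences 0.69 for Mobp and 1.08 for Aqp4. Among markers of lymphocytes and dendritic cells 2 of 17 were tested, with Ptprc higher (log2 1.52, not called without 3 of the libraries in turn) and Cd4 lower (log2 -2.41). Ptprc, with 9 and 15 reads in the 2-library set, reached the filter only through the 3-library set. None of the 9 vascular markers was tested. Enpp2, picked out after its values were seen, had 198, 159 and 172 CPM in the 3-library set, against 140 and 973 CPM in the 2-library set. How these shifts bear on the presentation genes was not tested.

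Most other measured class I heavy chain genes, and B2m, were higher as well. Of 17 other class I heavy chain genes and B2m, 8 were tested, and 7 were higher and 0 lower, with a median log2 difference of 3.47. Of all genes tested, 13.0% were called higher. H2-T24, H2-T10 and H2-M3, picked out by their reads, reached the mean of 20 reads only through the 3-library set. The count and the median are thus a description. B2m, the light chain of every class I molecule, had 4962, 5421 and 5177 CPM in the 3-library set, against 451 and 969 CPM in the 2-library set, a log2 difference of 2.97 ± 0.21 (SE, limma adjusted p = 6.986e-07). H2-Q4, H2-T23 and H2-T10 had the largest differences, of 5.46, 4.42 and 3.89, and H2-T10 rested on 5 reads and 1 read in the 2-library set. With each library left out in turn, H2-Q4 ranged from 4.47 to 6.45 and H2-T10 from 2.95 to 4.83, the ends set by the libraries of the 2-library set. H2-T23 encodes Qa-1, a ligand of inhibitory receptors on natural killer cells. Hfe, a class I-like protein of iron handling, was the 1 gene not called, with 15.5, 11.5 and 9.29 CPM in the 3-library set, against 7.65 and 14.7 CPM in the 2-library set.

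Psmb10, the inducible subunit that takes the place of the constitutive Psmb7, had 220, 194 and 190 CPM in the 3-library set, against 26.6 and 55.9 CPM in the 2-library set (log2 2.38 ± 0.23, SE, limma adjusted p = 8.283e-06). Psme1, a subunit of the PA28 activator, had a log2 difference of 1.62. Psme3 and Pomp were tested and not called, at -0.03 and 0.07. Of 14 constitutive subunits of the 20S core, 9 were tested and 0 were called in limma, with 0 of 9 at an unadjusted p below 0.05, and their log2 differences lay between -0.07 and 0.11. Psmb7 had 373, 304 and 348 CPM in the 3-library set, against 328 and 361 CPM in the 2-library set, a log2 difference of -0.02 ± 0.10, and it was 0.02 when scaled by total reads. The difference between Psmb10 and Psmb7 was not itself tested.

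Of 13 further genes of peptide loading and trimming, 10 were tested, with 5 higher and 0 lower and a median log2 difference of 0.40. The share called higher over all genes tested was 13.0%. Erap1, the aminopeptidase that trims peptides in the endoplasmic reticulum, had 17.2, 20.6 and 15.6 CPM in the 3-library set, against 2.96 and 4.90 CPM in the 2-library set (log2 2.18). With 12 and 20 reads in the 2-library set, Erap1 reached the filter only through the 3-library set. Ide and the chaperone Canx followed at 0.71 and 0.62, and Ide was not called without 3 of the libraries in turn. Calr, Pdia4, Npepps, Tpp2 and Thop1, named after their values were seen, were not called, between -0.28 and 0.32.

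For class II presentation, 7 of 19 listed genes were tested, with 2 higher and 0 lower, against 13.0% of all genes tested called higher. Ctss, the cathepsin that cuts the invariant chain in antigen-presenting cells, had 1191, 1098 and 1206 CPM in the 3-library set, against 305 and 626 CPM in the 2-library set (log2 1.41). Lgmn, an asparagine endopeptidase of the same compartment, had a log2 difference of 1.04, which was 0.42 when the first of the 2 libraries of the 2-library set was left out. H2-DMa, the 1 tested chain of a class II-like molecule, was not called (log2 -0.20 ± 0.13, SE, adjusted p = 0.2957 in limma). The classical class II chains H2-Aa, H2-Ab1 and H2-Eb1 were not analysed here.

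Among 15 regulators of MHC transcription, 11 were tested, with 4 higher and 1 lower, against 1068 higher and 782 lower of all 8201 genes tested. Nlrc5, the class I transactivator, had 15.3, 16.3 and 21.6 CPM in the 3-library set, against 0 and 1.23 CPM in the 2-library set. There it rested on 0 and 5 reads, and the log2 difference was 5.44 ± 0.82 (SE). Nlrc5 reached the filter on reads only through the 3-library set, so its limma p is not given. With the first or the second of the 2 libraries of the 2-library set left out, its log2 difference was 3.71 or 7.16. Irf2 (0.75, named after its value was seen) was also higher. Irf8 was called at log2 1.06 but lost its call when any of 4 of the 5 libraries was left out, with 0.36 without the first of the 2-library set. Nfyb, a subunit of the Y box factor NF-Y and likewise named after its value was seen, was lower at -0.65. Rfx5, Nfya, Nfyc, Creb1, Rela and Nfkb1, named in the same way, were not called, between -0.41 and 0.48.

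Of 26 interferon response genes 18 were tested and 18 were higher, against 13.0% of all genes tested, with a median log2 difference of 3.46. The largest differences were in Oasl2, Usp18 and Mx1 at 6.27, 5.86 and 5.24, and Mx1 rested on 1 and 7 reads in the 2-library set. Mx1, Mx2, Ifit2, Gbp3, Ddx58, Ifih1 and Trim25, picked out by their reads, reached the mean of 20 reads only through the 3-library set. The count and the median are thus a description. Usp18 ranged from 4.39 to 7.33 and Mx1 from 4.08 to 6.40 when either library of the 2-library set was left out. Of 9 interferon receptor and JAK genes 7 were tested, with Ifnar2 higher at 0.88 and Jak2 lower at -0.76. Ifnar2 was not called without 3 of the libraries in turn, and Jak2 was not called, at -0.18, when its reads were summed over all its events. The other 5 were not called.

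Of the 7 genes, 6 lie on chromosome 17 and Cd74 lies on chromosome 18, and the neighbours on chromosome 17 were read out as well. Of 125 listed genes between Tapbp and H2-Q7 that are in none of the lists, 27 were tested, with a median log2 difference of -0.03. There were 2 higher, the complement gene C4b at 1.84 and the zinc transporter Slc39a7 at 0.63, and 2 lower, Prrt1 at -0.48 and Rnf5 at -0.32. These 4 were named after their values were seen, and the remaining 23 were not called. Over all 8201 genes tested, 1068 were called higher and 782 lower.

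**Figure D3:**
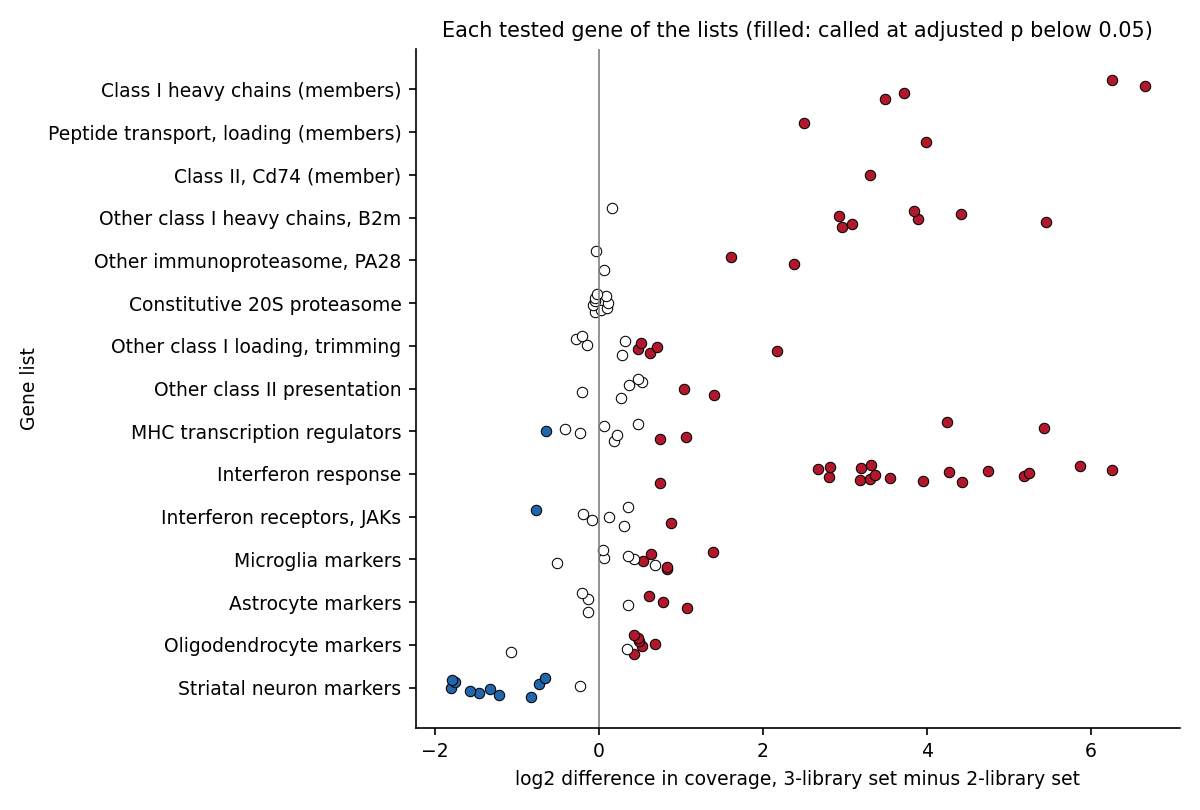
Log2 difference in coverage (3-library set minus 2-library set) of each tested gene of the lists, one row per list, with filled points for genes called at adjusted p below 0.05 (red higher, blue lower) and open points for genes not called. The genes described here lie at 2.50 and above, the constitutive proteasome genes between -0.07 and 0.11, and 10 of 11 striatal neuron markers are called lower.

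Inclusion of exons asks whether the shape of the transcripts differed beside their amount. Of the 18 events of the 7 genes, 9 in 5 genes had enough reads for the test (a mean of 20 per library and 10 of the rarer form in all). With limma on the logit of inclusion, 0 of 9 were called, against 3.69% of 7754 events, and 0 of 9 had an unadjusted p below 0.05. Their adjusted p lay between 0.4909 and 0.9851. Of the 9, 3 had at most 6 reads in any library of the 2-library set and passed the filter through the 3-library set, so nothing is read from the share called. The other 6 had a mean of 20 reads in the 2-library set too. Of these, the 4 events of H2-K1 had at most 1 skipping read each in the 2-library set, and that of H2-D1 had 6. They reached 10 reads of the rarer form only through the 3-library set. Only the event of Cd74 had that number in either set.

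Cd74 has a known long form with an extra domain. In its 192-nt exon (chromosome 18, 60970948 to 60971139 in the coordinates of the HSV table) the inclusion level was 0.185, 0.185 and 0.214 in the 3-library set, against 0.149 and 0.324 in the 2-library set, where 14 and 67 reads stood behind it. The values of the 3-library set lay between those of the 2-library set. The logit difference was -0.54 ± 0.34 (SE, limma adjusted p = 0.4909), and its sign turned when the second library of the 2-library set was left out. The table does not name the form that this exon belongs to.

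H2-Q7 had a 285-nt exon (chromosome 17, 35579212 to 35579496 in the same coordinates) with an inclusion level of 0.245, 0.289 and 0.215 in the 3-library set, against 0 and 0 in the 2-library set, from 0 inclusion reads and 2 and 3 skipping reads. Pooled, the level was 0.250 in the 3-library set, and the 5 reads of the 2-library set allow a level of up to 0.273 (exact 95% binomial interval, corrected for form length), so a difference was not detectable at this depth. A 117-nt exon that shares its skipping reads was at 0.248, 0.264 and 0.165 in the 3-library set, against 0.529 and 0.158 in the 2-library set. In H2-Q6, a 276-nt exon was at 0.679, 0.808 and 0.825 in the 3-library set, against 1 and 1 in the 2-library set, from a single read each. None of the 3 exons was called in limma, with adjusted p of 0.6596, 0.7979 and 0.8244 in the order given.

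In the authors' deposited table, 3 of the 18 events had a false discovery rate below 0.05, against 4.87% of 27900 events: the 276-nt exon of H2-Q6 (0.01877), the 285-nt exon of H2-Q7 (0.001633) and a further event of the same 285-nt exon with a nearer downstream exon (0.003522). The last was at 0.939, 0.98 and 1 in the 3-library set, against 0 and 1 in the 2-library set, where 4 reads and 1 read stood behind it. These 3 events had between 1 and 4 reads in each library of the 2-library set.

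The short exons of the classical heavy chains were included in nearly all transcripts. H2-D1 had 1 tested event, a 39-nt exon at 0.978, 0.987 and 0.977 in the 3-library set, against 0.965 and 0.997 in the 2-library set. The 4 tested events of H2-K1, over exons of 39 and 33 nt, lay between 0.963 and 1 in the 3-library set, against 0.988 and 1 in the 2-library set. Tap1 and Tapbp were too rarely skipped to be tested: 3 skipping reads stood over both events of Tap1 in all 5 libraries and 3 over the event of Tapbp.

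**Figure D4:**
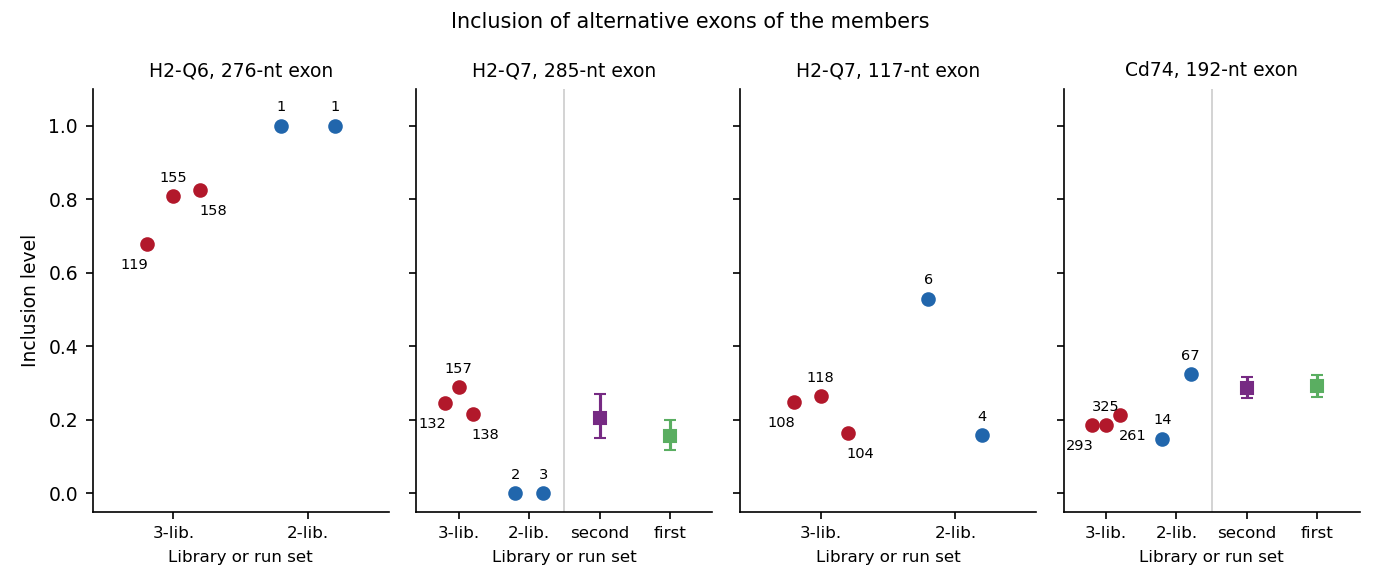
Inclusion level of 4 alternative exons, with points for libraries of the HSV table (3-library set in red, 2-library set in blue, reads behind each value beside it) and, where the dCas9-SET2 table lists an exon of the same length and the same flanking gaps, squares with exact 95% binomial intervals for its second and first set. The 3-library set rests on 104 to 325 reads per library and the 2-library set on 1 to 67.

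In the dCas9-SET2 table, H2-Q7 and Cd74 were covered in both sets of runs. The runs at positions 4 and 8 held identical counts in 100% of events in either set, so they were counted once and each set has 15 distinct runs. Reads over all listed events were between 56946 and 84870 per run in the second set and between 79799 and 106251 in the first. Runs share sample names, so there is no test, and intervals cover counting error only.

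H2-Q7 had 126 reads in the second set, or 123 RPM (reads relative to 1e+06 reads over all listed events, exact 95% Poisson interval 102 to 146), against 175 reads in the first set, or 126 RPM (108.0 to 146). The ratio of the second over the first set was 0.973 with an interval of 0.767 to 1.23, so no difference was detectable at this depth. Runs lay between 37.7 and 349 RPM with a median of 118 in the second set, against 37.6 to 201 with a median of 129.9 in the first set. The runs of the sets overlapped.

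Cd74 had 793 reads in the second set, or 771 RPM (719 to 827), against 809 reads in the first set, or 582 RPM (543 to 624). The ratio was 1.32 (1.20 to 1.46), and the runs overlapped: they lay between 176 and 1906 RPM with a median of 833 in the second set, against 300 to 813 with a median of 609 in the first set. Over 2875 genes with 50 or more reads, the median ratio was 0.990 with quartiles of 0.843 and 1.16, and 5.08% of genes had a ratio of 1.5 or more, which neither of these genes reached.

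Within each set the Cd74 level followed the position of the run. In the second set it was 833 to 1906 RPM at positions 9 to 16 and 176 to 342 at positions 1 to 7, and in the first set it was 609 to 813 and 300 to 480 at the same positions. H2-Q7 had its highest runs at positions 9 to 16 in both sets, up to 349 and 201 RPM. Positions carry no sample name in the table, and this order was noticed after the values were seen. The direction of the Cd74 difference between sets turned with it: the second set ran lower at positions 1 to 7 and higher at positions 9 to 16. Of 45 other listed genes, 6 were higher at each of positions 9 to 16 than at any of positions 1 to 7 in the second set, and 2 in the first set. The share of all genes with such a split was not counted, and runs share sample names, so nothing is read from these counts. The 6 in the second set included the interferon response genes Irf7 (953 to 1732 and 500.1 to 729 RPM) and Gbp3 (224 to 375 and 30.3 to 176 RPM) and the striatal neuron genes Tac1 (1450 to 2448 and 690 to 1050 RPM) and Gng7. They also included Cd68, at 2702 to 4717 and 1696 to 2639 RPM, which was 1 of 4 listed microglia markers. In the other 3, Siglech, Tmem119 and P2ry12, the ranges overlapped. The ratio of the second over the first set was 0.722 for Cd68, against 1.32 for Cd74. The part of these genes in the Cd74 levels was not tested.

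**Figure D5:**
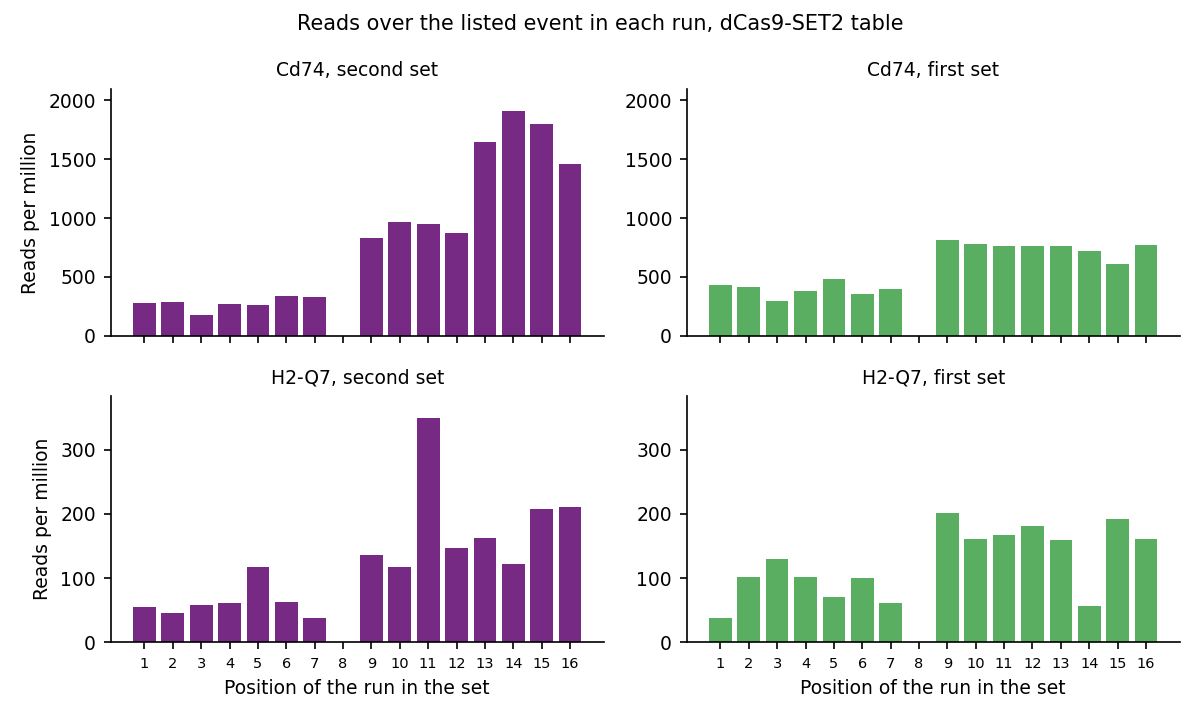
RPM over the listed event of Cd74 (top) and H2-Q7 (bottom) in each distinct run, by the position of the run, for the second set (left) and the first set (right) of the dCas9-SET2 table, with position 8 left out as a copy of position 4. Cd74 reaches 833 to 1906 RPM at positions 9 to 16 of the second set and stays at 342 or below before them.

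Inclusion of the same exons was close in both sets. The Cd74 exon of 192 nt (chromosome 18, 60811294 to 60811485, inside the gene on GRCm38) was included at 0.287 (exact 95% interval 0.259 to 0.317) over pooled reads in the second set, against 0.292 (0.263 to 0.322) in the first set. The H2-Q7 exon of 285 nt (chromosome 17, 35442267 to 35442551) was included at 0.205 (0.152 to 0.271) in the second set, against 0.156 (0.119 to 0.201) in the first set. The authors' deposited table gave adjusted p-values of 0.897 for Cd74 and 0.582 for H2-Q7, with the copied run in either set included. In both sets each exon was skipped more often than included.

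Some presentation and interferon genes outside the 10 were also listed there. Of 24 such genes, 5 had a ratio above 1 and 19 below, with a median of 0.776, and the counting interval lay above 1 in 0, below 1 in 10 and held 1 in 14. Over the 2875 genes with 50 or more reads the median ratio was 0.990, with quartiles of 0.843 and 1.16. The share of all genes with an interval below 1 was not counted. Since the intervals leave out the spread between runs, nothing is read from the number below 1. H2-T22 had a ratio of the second over the first set of 0.766 (0.664 to 0.883), Nlrc5 of 0.624 (0.445 to 0.867) and Irf7, the interferon regulator, of 0.781 (0.723 to 0.843). These 3 genes were picked with their values known. Among those with a ratio above 1 were Irf9 at 1.12, Xaf1 at 1.02, Tpp2 at 1.14 and March1 at 1.04, each with an interval that held 1.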

How the data were processed

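RNA libraries and runs of mouse nucleus accumbens were read from 2 tables of exon skipping events. The submitters' processing notes list the aligners STAR (2.4.1d) and Bowtie2 along with mm9 and mm10, without saying which table used which, with no event caller given in the sources used here. Read counts deposited by the authors stand joined by commas in cells, and 5 columns of libraries and 32 of runs carry no sample name, so no count model was fitted. The p-value and FDR per event, the inclusion level (a fraction) and the score of its difference were deposited by the authors, who per the file headers derived inclusion from counts and form lengths, with 150 for the skipping form in the HSV table and 99 in the dCas9-SET2 table. Against GRCm38 gene spans, 13.1% of exons in the HSV table and 99.8% in the dCas9-SET2 table fell within their own gene, so coordinates were not compared between tables.

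For coverage, limma (version 3.58.1, R 4.3.3) modelled log2 of CPM with 0.5 added to each count, TMM factors (trims 0.3 and 0.05) and a trended spread, for genes with a mean of 20 reads per library. The logit of inclusion was fitted with precision weights. Calls were made at 0.05 after Benjamini-Hochberg adjustment, two-sided. The fits were tested on simulated data. Promoters were taken from RefSeq tables. Named genes beside the members are up to 3 called genes of each list with the largest difference, plus B2m, Nlrc5, Psmb10 and Psmb7, and exceptions are marked. A named gene that is withheld is not reported here. The members, the lists and the tests were chosen with earlier results of these data known. Chromatin samples of the series were not used here. In the dCas9-SET2 table the 15 distinct runs of a set were summed, in place of the planned 16, with exact Poisson intervals that cover counting error only.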

Additional observations from a re-analysis of the deposited data

How the results depend on the processing

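All 7 measured genes kept their direction and call in each of the 13 coverage settings tried (total-reads or median-of-ratios scaling, other filters, other added counts, other event summaries, voom weights, each library left out), with log2 differences from 5.47 to 7.05 for H2-Q7, 2.94 to 4.50 for H2-K1, 2.81 to 4.16 for H2-D1, 3.46 to 4.52 for Tap1, 2.20 to 2.81 for Tapbp and 2.20 to 4.41 for Cd74, and adjusted p of up to 0.002957. For H2-Q6 and H2-Q7, which reached the filter on reads only through the 3-library set, the kept calls are a description. Where 1 library of the 2-library set was left out, the lone one is assumed to vary like the others. Psmb7, which was not called, had 0.02 with total-reads scaling and -0.10 to 0.05 over the left-out libraries. No paired analysis was possible because the columns carry no replicate numbers.

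Of the 7754 events, 286 were called, against 0 without precision weights, 974 by the authors' FDR over the same events and 150 to 236 over the left-out libraries. For events of the 7 genes the count of 0 became 2 with the authors' FDR. Signs of their logit differences, none called, turned in 8 events. With 0.1 added to each count they were -0.17 for the 276-nt exon of H2-Q6 and -1.44 for the 33-nt exon of H2-K1 beside the 39-nt exon. Without weights they were 0.76 and -0.40 for the 39-nt exon of H2-K1 with the farther and the nearer flanking exon, 0.89 for its 33-nt exon with the farther flanking exons and -0.39 for H2-D1. Over the left-out libraries they ran from -1.22 to 0.21 for the 117-nt exon of H2-Q7, -0.69 to 0.25 for Cd74 and -1.58 to 0.69 for H2-D1. For H2-K1 they ran from -1.03 to 0.83 (0.37 with the second of the 2 libraries of the 2-library set left out) and -1.54 to 0.66 for the 39-nt exon. For its 33-nt exon they ran from -0.58 to 1.01 (0.18 with that one left out) and -0.40 to 0.60 (-0.07 with the second of the 3 libraries of the other set left out). The direction of inclusion is thus not settled for these events, and the cause was not tested. In the dCas9-SET2 table the ratio of Cd74 was 1.30 to 1.34 and that of H2-Q7 0.955 to 0.982 over the alternatives, one of them, the use of all 16 runs, chosen after seeing the data.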
